A study of Homo sapiens with 6 samples.

Results

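Adherens junctions hold epithelial cells together through 2 layers of receptors. Classical cadherins are single-pass receptors that bind the same kind of cadherin on the next cell in the presence of calcium, and nectins are immunoglobulin-like receptors that bind without it. Inside the cell, beta-catenin (CTNNB1) or its close relative plakoglobin (JUP) binds the cadherin tail, and alpha-catenin (CTNNA1) links that complex to actin. Epithelial cells are known for E-cadherin (CDH1), and a shift towards N-cadherin (CDH2) or cadherin-11 (CDH11) is a textbook sign of the epithelial to mesenchymal transition.

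The 9 genes described are the cadherin genes CDH1, CDH2, CDH3 and CDH11, the catenin genes CTNNA1, CTNNB1 and JUP, and the nectin genes PVRL1 and PVRL4, now called NECTIN1 and NECTIN4. They were chosen by symbol from 54607 gene rows. All 9 had 1 row each and all 9 were among the 13611 tested rows, those whose mean over the libraries reached 1 FPKM (fragments counted per kilobase of transcript, relative to library size). RNA was measured in H358 cells, an established human line from a non-small cell lung carcinoma that grows as an epithelium. In 3 libraries (the labels' ESRP KD) the cells carried lentiviruses with short hairpins that target ESRP1 and ESRP2, a pair of RNA-binding proteins that set epithelial splicing, and in 3 (the labels' CTRL) a control knockdown. The design text calls them biological triplicates, and n = 3 in every mean ± SD below. What the hairpins do by themselves cannot be told apart from what the loss of ESRP RNA does.

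Both targeted genes were lower in the libraries labelled as knockdown. ESRP1 stood at 11.9 ± 0.30 FPKM in the knockdown, 16.3% of its control level, and ESRP2 at 8.40 ± 0.32 FPKM, 54.2% of its control level. Among cell type markers, all 5 epithelial markers were present, with a summed level of 3349 to 3463 FPKM over the control libraries and 2920 to 3010 FPKM over the knockdown libraries. EPCAM overlapped between the groups (limma adjusted p = 0.54), and the keratins KRT7, KRT8, KRT18 and KRT19 fell, KRT8 not passing when no filter was used (adjusted p = 0.052). The part of this lower epithelial sum in the results below was not tested. Of 5 fibroblast markers only COL1A1 reached 1 FPKM (summed level 8.38 to 10.2 FPKM over the control and 8.67 to 11.1 FPKM over the knockdown libraries), while COL1A2, COL3A1, DCN and PDGFRB were near 0. Of 3 endothelial markers only KDR reached it (sums of 1.45 to 1.52 in the control and 1.52 to 1.69 in the knockdown), and of 4 leukocyte markers none did (sums of at most 1.26 and 1.01). The depth of the libraries was estimated from steps among low values, relative to control replicate 1. It was 0.993, 1.42 and 1.26 in knockdown replicates 1 to 3 and 1.66 and 1.64 in control replicates 2 and 3. The total depth is unknown. In bulk RNA, fewer cells of a kind and less RNA per cell cannot be told apart.

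Of the 9 adhesion genes, 6 were lower in the knockdown, 2 were higher and 1, CTNNA1, did not pass the test (limma on log2(FPKM + 1), Benjamini-Hochberg adjusted p threshold 0.05). Over all tested genes 16.7% passed, 10.2% as lower and 6.54% as higher. The 2 groups of libraries did not overlap for 8 of the 9 genes, 6 with the knockdown below and 2 with it above, against 38.1% of all tested genes, 20.9% with it below and 17.3% with it above. The genes that fell were the epithelial cadherins CDH1 and CDH3, the catenins JUP and CTNNB1 and both nectins, and those that rose were CDH2 and CDH11. The changes of the called members were modest in size, from 1.09-fold for CTNNB1 to 1.37-fold for JUP on the log2(FPKM + 1) scale. Beside all called genes they were not small, CTNNB1 apart. CDH3 changed by more than 70.9% of all called genes and JUP by more than 91.9%, with the other called members between these. The median log2 fold change of the 9 was -0.30, against -0.0021 over all tested genes. The 9 genes were listed with earlier results of these data known, so their count is a description and not an independent test.

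**Figure D1:**
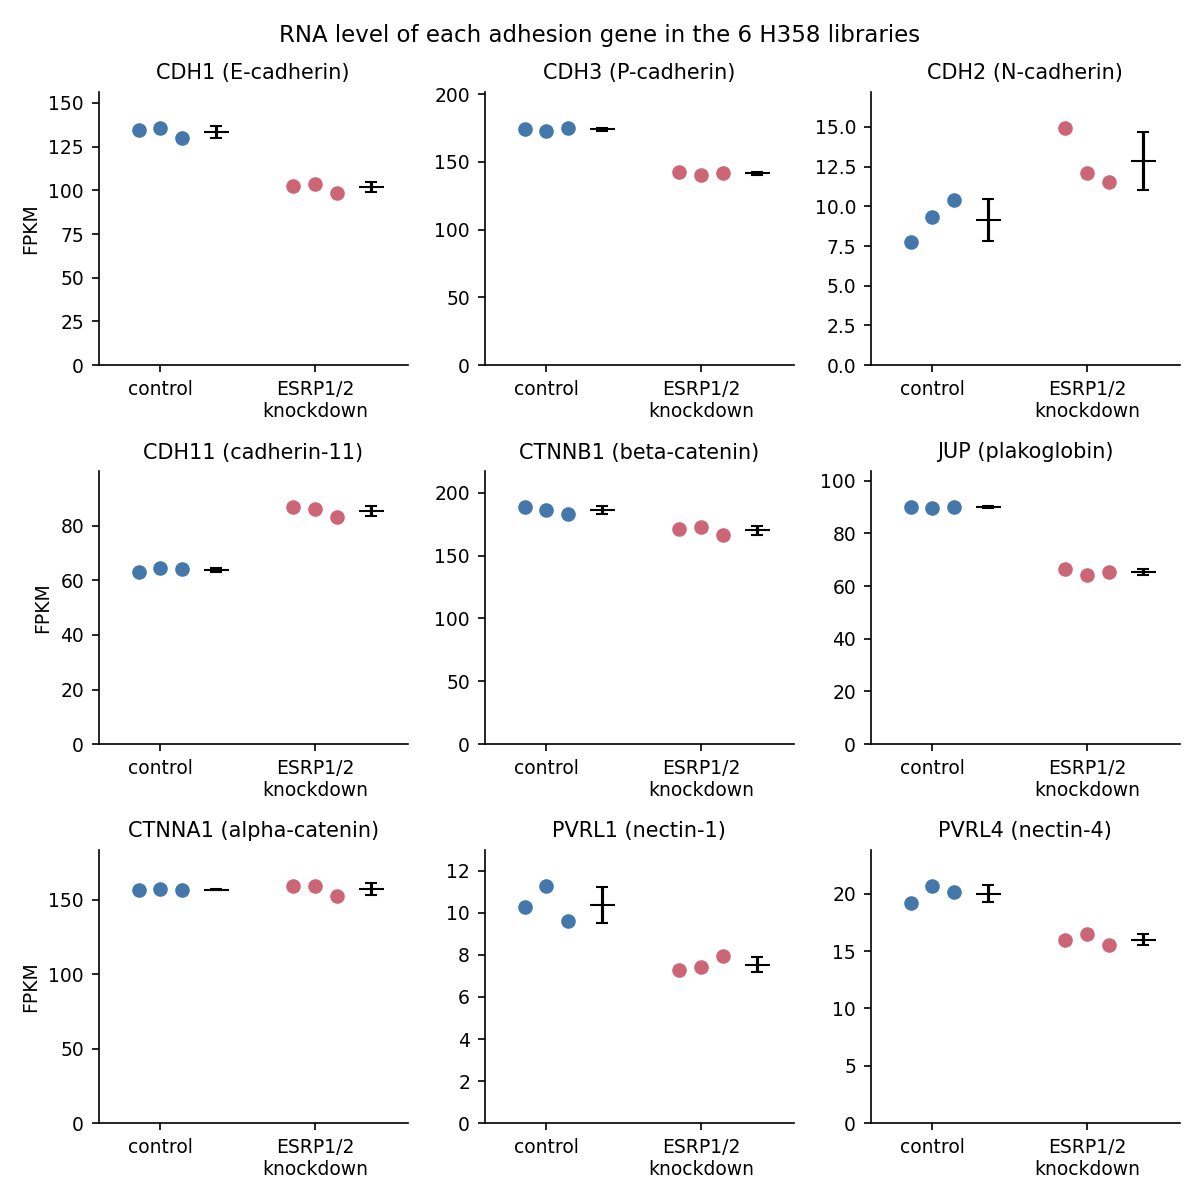
FPKM of each adhesion gene in each control library (blue, replicates 1 to 3 from left to right) and each ESRP1 and ESRP2 knockdown library (red), with the group mean and SD beside the points and each axis starting at 0. The 2 groups are apart for all genes except CTNNA1, with CDH2 and CDH11 higher in the knockdown and the other 6 lower.

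CDH1 (ENSG00000039068) encodes E-cadherin, the main cadherin of epithelia. It stood at 135, 136 and 130 FPKM in control replicates 1 to 3 and at 103, 104 and 98.5 FPKM in knockdown replicates 1 to 3. The knockdown libraries all lay below the control libraries, at 76.2% of the control mean. On the log2 scale CDH1 fell by 0.39 (SE 0.03, 95% confidence interval -0.46 to -0.32, limma adjusted p = 5.0e-04). No single library decided this: with any 1 of the 6 removed, the adjusted p was at most 0.0057.

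CDH3 (ENSG00000062038) encodes P-cadherin, found in basal and glandular epithelia, and was the cadherin with the highest level in H358 cells. It stood at 174, 173 and 175 FPKM in the control libraries and 143, 140 and 142 FPKM in the knockdown libraries. The spread within each group was small, and the groups did not overlap. CDH3 fell by 0.30 on the log2 scale (SE 0.02, 95% confidence interval -0.35 to -0.24, limma adjusted p = 4.3e-04). Within each library the log2 ratio of CDH3 to CDH1 was 0.37, 0.35 and 0.43 in the control and 0.48, 0.43 and 0.52 in the knockdown, values that overlap between the groups (difference 0.09, exact two-sided permutation p = 0.20).

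CDH2 (ENSG00000170558; hg19 chromosome 18, 25530930 to 25757410, minus strand) encodes N-cadherin, the cadherin of neural and mesenchymal cells, and was the least abundant cadherin of the 4. It stood at 7.75, 9.35 and 10.4 FPKM in the control libraries and 15.0, 12.1 and 11.5 FPKM in the knockdown libraries. The lowest knockdown library lay only just above the highest control library. N-cadherin RNA rose by 0.45 on the log2 scale (SE 0.12, 95% confidence interval 0.18 to 0.72, limma adjusted p = 0.039). This call rests on few libraries. It was lost without knockdown replicate 1 (log2 fold change 0.34, adjusted p = 0.095) or replicate 2 (adjusted p = 0.082) and without control replicate 1 or 2 (adjusted p of 0.099 in both fits), and also without an intensity trend (adjusted p = 0.063) or a filter on low values (adjusted p = 0.14).

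CDH11 (ENSG00000140937) encodes cadherin-11, a type II classical cadherin of mesenchymal cells and bone-forming cells. It was far above CDH2 in both groups, at 63.1, 64.5 and 64.0 FPKM in the control libraries and 86.9, 85.9 and 83.1 FPKM in the knockdown libraries. All knockdown libraries were higher, and the spread within groups was small against the gap between them. Its rise was 0.41 on the log2 scale (SE 0.03, 95% confidence interval 0.35 to 0.48, limma adjusted p = 2.6e-04), and no fit that left out a library lost the call (adjusted p up to 0.0034). In absolute terms the knockdown mean was 21.5 FPKM above the control for CDH11 and 3.70 FPKM above it for CDH2.

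**Figure D2:**
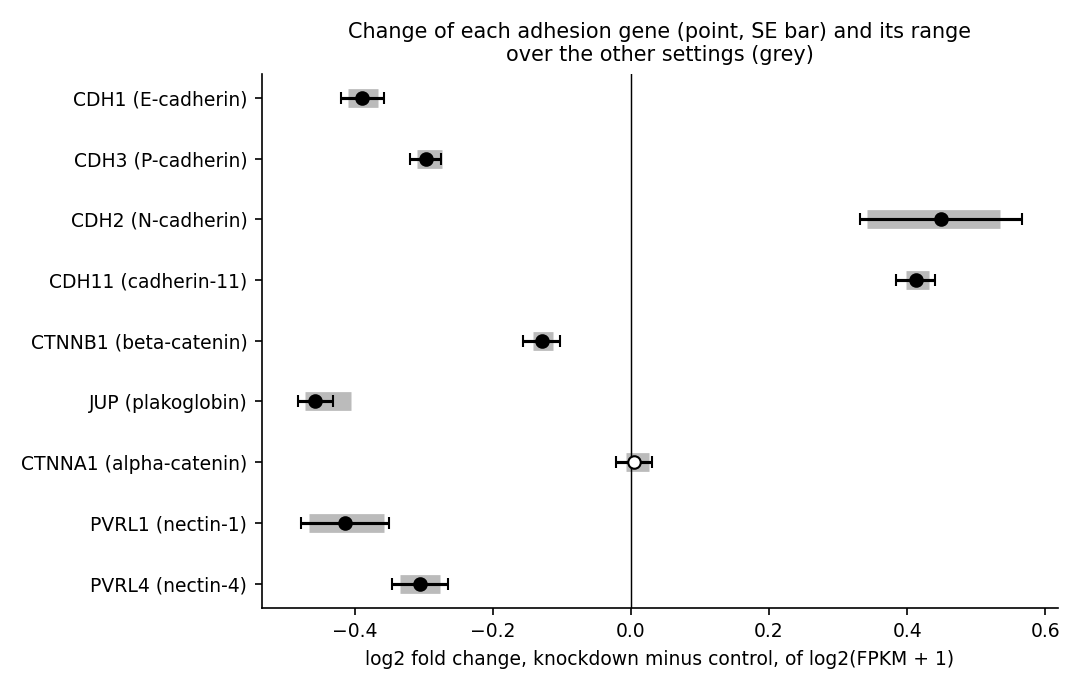
Log2 fold change of each adhesion gene, knockdown minus control, on the log2(FPKM + 1) scale, with its SE (bar) and its range over the 14 other settings and left-out libraries (grey band). Filled points passed the test and the open point, CTNNA1, did not. CDH1, CDH3, CTNNB1, JUP, PVRL1 and PVRL4 lie below 0 and CDH2 and CDH11 above it under every setting tried, with the widest band for CDH2.

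The summed level of the 4 cadherins fell from 380 ± 1.8 FPKM in the control to 341 ± 6.4 FPKM in the knockdown, with no overlap, and its makeup differed. CDH3 and then CDH1 were the largest parts of it in every library. CDH11 supplied 16.6%, 16.9% and 16.9% of the sum in the control libraries and 25.0%, 25.1% and 24.8% in the knockdown libraries. CDH1 supplied 35.5%, 35.5% and 34.2% in the control libraries and 29.6%, 30.4% and 29.4% in the knockdown libraries. CDH2 supplied 2.41% ± 0.35 in the control and 3.76% ± 0.47 in the knockdown, a rise of 1.36 percentage points, against 8.21 points for CDH11. CDH2 and CDH11 together rose from 19.2% ± 0.48 to 28.8% ± 0.53 of the sum.

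**Figure D3:**
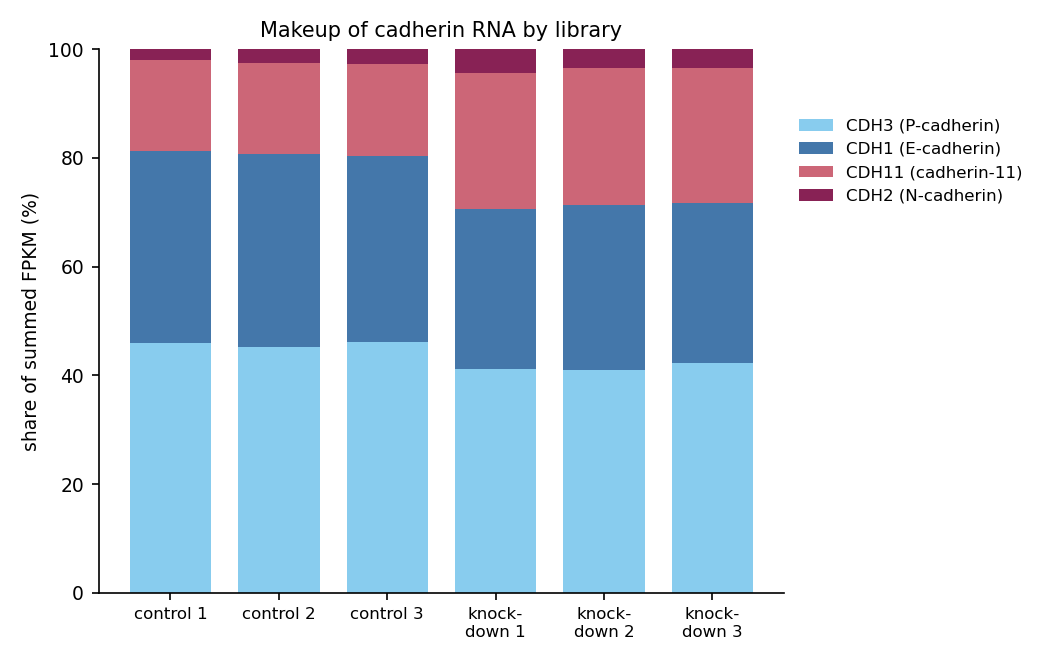
Share of the summed FPKM of the 4 classical cadherins that each supplied, by library. CDH11 (pink) makes up 16.6% to 16.9% in the control libraries and 24.8% to 25.1% in the knockdown libraries, and CDH2 (purple) at most 4.31% in any library.

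Ratios within a library do not depend on how the libraries were scaled. There were 0.469, 0.474 and 0.493 FPKM of CDH11 for each FPKM of CDH1 in the control libraries and 0.846, 0.827 and 0.843 in the knockdown libraries. On the log2 scale the difference was 0.81, a 1.75-fold higher ratio. For CDH2 to CDH1 the ratio was 0.0576, 0.0688 and 0.0800 in the control libraries and 0.146, 0.116 and 0.117 in the knockdown libraries, a difference of 0.88 on the log2 scale. Neither ratio overlapped between the groups. The exact two-sided permutation p was 0.10 for each ratio, which is the smallest that 3 against 3 libraries allow. After Benjamini-Hochberg adjustment over the 5 ratios tested, the permutation p was 0.17. The gap and the p of 0.10 were fixed by the single genes. CDH2 and CDH11 lay wholly above the control in the knockdown and CDH1 wholly below it, so these ratio tests add no support.

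CTNNB1 (ENSG00000168036; chromosome 3, 41236328 to 41301587, plus strand) encodes beta-catenin, which binds cadherin tails and also acts in the nucleus in Wnt signalling. It had the highest level of the 9 genes in both groups, at 189, 186 and 183 FPKM in the control libraries and 171, 173 and 166 FPKM in the knockdown libraries. The knockdown libraries were all lower, at 91.4% of the control mean. CTNNB1 fell by 0.13 on the log2 scale (SE 0.03, limma adjusted p = 0.018). This is a small change, since only 7.73% of all called genes changed by less. The call was lost without control replicate 1 or 2 (adjusted p of 0.065 and 0.064) and without an intensity trend (adjusted p = 0.056).

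JUP (ENSG00000173801) encodes plakoglobin, which takes the place of beta-catenin in adherens junctions and is also part of desmosomes. It stood at 90.1, 89.6 and 90.2 FPKM in the control libraries and 66.4, 64.2 and 65.3 FPKM in the knockdown libraries, with a wide gap between the groups. JUP fell by 0.46 on the log2 scale (SE 0.03, 95% confidence interval -0.52 to -0.40, limma adjusted p = 1.3e-04), the lowest adjusted p among the 9. Its share of JUP and CTNNB1 together was 32.3%, 32.5% and 33.0% in the control libraries and 28.0%, 27.1% and 28.2% in the knockdown libraries. The log2 ratio of JUP to CTNNB1 differed by -0.33 (no overlap, exact two-sided permutation p = 0.10, the smallest possible).

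The deposited JUP row is wide. It covers hg19 chromosome 17, 39775692 to 39943183, on the minus strand, and 7 other rows overlap it, of which 2 had a mean of at least 1 FPKM. EIF1, a translation initiation factor on the opposite strand, stood at 278 ± 7.1 and 278 ± 7.9 FPKM in control and knockdown, a log2 fold change of -0.0044 (limma adjusted p = 0.94). KRT17, a keratin of stressed and basal epithelia on the same strand, stood at 3.76 ± 0.54 and 1.87 ± 0.22 FPKM (log2 fold change -0.73, adjusted p = 0.0041), while JUP fell by 24.7 FPKM. Reads shared between these rows could not be checked in FPKM values. No row that overlaps any other of the 9 genes reached a mean of 1 FPKM.

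CTNNA1 (ENSG00000044115; chromosome 5, 137946656 to 138270723, plus strand) encodes alpha-catenin, the link from the cadherin complex to actin. It stood at 156, 157 and 157 FPKM in the control libraries and 160, 159 and 153 FPKM in the knockdown libraries. The groups overlapped. Its log2 fold change was 0.0046 (SE 0.03, limma adjusted p = 0.92), with a 95% confidence interval of -0.06 to 0.07, which corresponds to 0.961 to 1.05 times the control level. With CTNNA1 at this level and lower JUP and CTNNB1, there were 0.560, 0.569 and 0.574 FPKM of CTNNA1 for each FPKM of JUP and CTNNB1 together in the control libraries and 0.672, 0.672 and 0.660 in the knockdown libraries.

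PVRL1 (ENSG00000110400; chromosome 11, 119494120 to 119599794, minus strand) encodes nectin-1, an immunoglobulin-like receptor that recruits afadin and helps to start junctions. It stood at 10.3, 11.3 and 9.59 FPKM in the control libraries and 7.26, 7.41 and 7.95 FPKM in the knockdown libraries. The groups were apart, with more spread relative to the level than for CDH1, CDH3 and CDH11 but less than for CDH2. PVRL1 fell by 0.41 on the log2 scale (SE 0.06, 95% confidence interval -0.56 to -0.27, limma adjusted p = 0.0057), with adjusted p of at most 0.028 when any 1 library was removed.

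PVRL4 (ENSG00000143217; chromosome 1, 161040785 to 161059389, minus strand) encodes nectin-4, a nectin found on many carcinomas. It stood at 19.2, 20.7 and 20.1 FPKM in the control libraries and 15.9, 16.5 and 15.6 FPKM in the knockdown libraries, all of them lower. PVRL4 fell by 0.31 on the log2 scale (SE 0.04, limma adjusted p = 0.0033, at most 0.020 with any 1 library removed). The log2 ratio of PVRL4 to PVRL1 was 0.95 ± 0.11 in the control and 1.09 ± 0.10 in the knockdown and overlapped between the groups (exact two-sided permutation p = 0.20).

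The nectin family as a whole did not move one way. PVRL3, which encodes nectin-3, a preferred partner of nectin-1 across the junction, rose from 12.3 ± 0.71 to 14.8 ± 0.89 FPKM (log2 fold change 0.25, SE 0.06, limma adjusted p = 0.026), but it no longer passed when knockdown replicate 1 or 2 or control replicate 2 or 3 was removed (adjusted p up to 0.094) or when no filter was used (0.079). PVRL2, which encodes nectin-2 and was the most abundant nectin, stood at 38.7 ± 0.56 and 35.8 ± 1.3 FPKM in control and knockdown (log2 fold change -0.11, limma adjusted p = 0.066). The summed level of the 4 nectins was 81.4 ± 0.66 FPKM in the control and 74.1 ± 1.1 FPKM in the knockdown. Within that sum PVRL3 supplied 15.1% ± 0.86 in the control and 19.9% ± 1.1 in the knockdown, and PVRL1 12.8% ± 0.95 and 10.2% ± 0.64. Of 11 other nectins and nectin-like molecules, 4 were tested, of which PVRL3 rose and none fell (25.0% called, against 16.7% of all tested genes). PVR, the poliovirus receptor, and CADM4 had log2 fold changes of -0.01 and -0.18 (limma adjusted p of 0.81 and 0.051), CADM4 passing as lower after TPM scaling (0.038), with a pseudocount of 0.1 (0.047) and without an intensity trend (0.030).

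By level, the 9 genes ran in the control from CTNNB1 (186 ± 3.1 FPKM) through CDH3, CTNNA1, CDH1, JUP, CDH11, PVRL4 and PVRL1 to CDH2 (9.16 ± 1.3 FPKM). The libraries of each neighbour in this order were apart, except for PVRL1 and CDH2, which overlapped. In the knockdown the order was CTNNB1, CTNNA1, CDH3, CDH1, CDH11, JUP, PVRL4, CDH2 and PVRL1, with no overlap between neighbours. The orders differ by exchanges of neighbours, namely CTNNA1 with CDH3, CDH11 with JUP, and CDH2 with PVRL1.

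CDH3 and CDH1 are neighbours on hg19 chromosome 16, both on the plus strand. CDH3 lies at 68678151 to 68732971 and CDH1 at 68771128 to 68869444, 38.2 kb apart. CDH11 is on the minus strand of the same chromosome, at 64977656 to 65156101. Of 15 other tested genes within 500 kb of the CDH3 and CDH1 span, 4 fell, 1 rose and 10 did not pass. Over all tested genes 10.2% passed as lower and 6.54% as higher. The 4 that fell include ESRP2, a target of the hairpins, so its fall is set by the design and is no result about this locus. The rest were the amino acid transporter gene SLC7A6 (log2 fold change -0.30, limma adjusted p = 0.0027), TMCO7 (-0.22, adjusted p = 0.039) and the hyaluronan synthase gene HAS3 (-0.28, adjusted p = 0.019). PLA2G15, a lysosomal phospholipase gene, rose (0.27, adjusted p = 0.012). ZFP90, the tested gene next to CDH3 on its other side, stood at 16.6 ± 0.56 and 17.0 ± 0.39 FPKM in control and knockdown (adjusted p = 0.63). With 1 library removed, TMCO7 lost its call in every fit (adjusted p of 0.051 to 0.11) and without a filter (0.097), HAS3 without knockdown replicate 2 or control replicate 2 or 3 (up to 0.063) and PLA2G15 without control replicate 3 (0.052). VPS4A (log2 fold change -0.11, adjusted p = 0.052) passed as lower after TPM scaling (0.025), after median-ratio scaling (0.048) and with a filter of 5 FPKM (0.043). These neighbours were listed by distance alone, after the values of CDH1 and CDH3 were known.

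**Figure D4:**
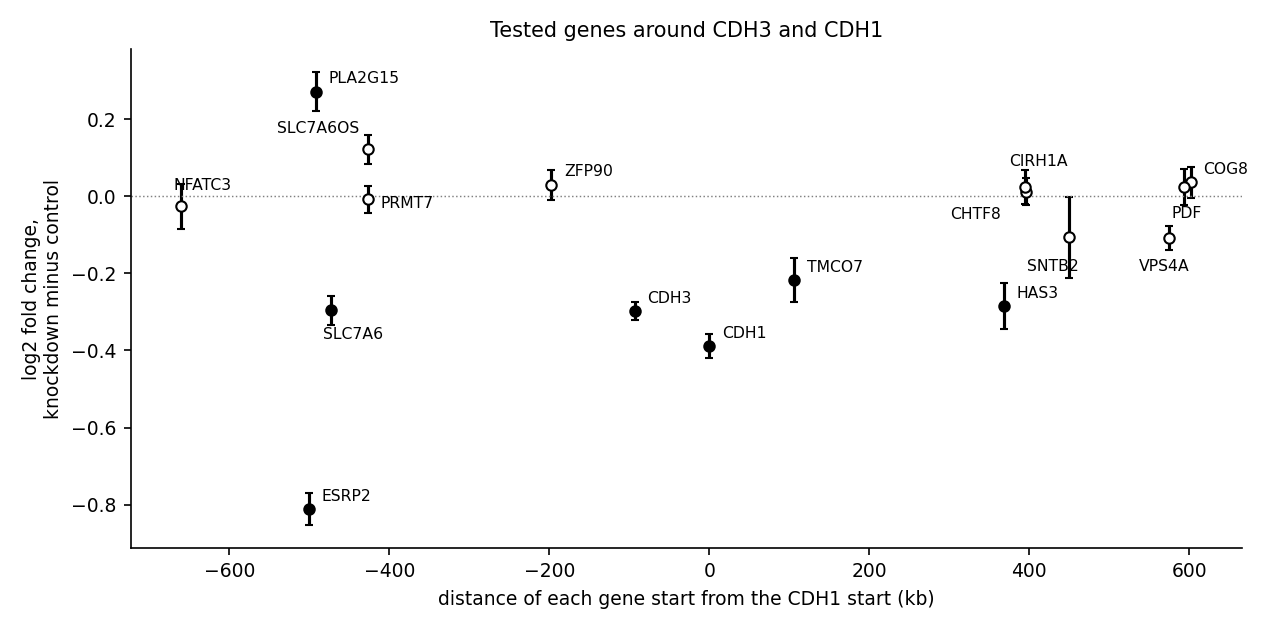
Log2 fold change (knockdown minus control, with SE) of the tested genes within 500 kb of the CDH3 and CDH1 span, by the distance of each gene's start from the CDH1 start in kb. Filled points passed the test. Of the 15 neighbours 4 fell (SLC7A6, TMCO7, HAS3 and ESRP2, itself a target of the hairpins) and PLA2G15 rose, while ZFP90 between CDH3 and SLC7A6 lies near 0. Over all tested genes 10.2% passed as lower and 6.54% as higher.

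Few other cadherins reached the level needed for testing. Of 18 further cadherin genes, 16 were below it, CDH8 the highest of them at 0.658 ± 0.051 FPKM in the control, and CDH17, the liver-intestine cadherin, and CDH22 were listed at 0 in all libraries. CDH6, kidney cadherin, stood at 2.83 ± 0.039 and 2.06 ± 0.20 FPKM in control and knockdown and fell by 0.33 on the log2 scale (limma adjusted p = 0.021), but it did not pass when any 1 control library was removed (adjusted p up to 0.070) or without a filter (0.065). CDH24 stood at 9.40 ± 0.14 FPKM in the control and 8.03 ± 0.87 FPKM in the knockdown (log2 fold change -0.21, adjusted p = 0.080). It passed as lower without knockdown replicate 3 (-0.28, limma adjusted p = 0.027).

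Of 16 tested genes for other catenins and for proteins that tie junctions to actin, 3 fell, 1 rose and 12 did not pass. The share called was 25.0%, against 16.7% of all tested genes, and the median log2 fold change was -0.07. CTNND1, which encodes p120-catenin, the catenin that keeps cadherins at the surface, stood at 120 ± 0.42 and 117 ± 2.1 FPKM in control and knockdown (log2 fold change -0.04, 95% confidence interval -0.10 to 0.01, limma adjusted p = 0.26). MLLT4, which encodes afadin, the nectin-binding linker, stood at 26.8 ± 1.3 and 25.2 ± 1.6 FPKM (log2 fold change -0.09, adjusted p = 0.31). VCL, which encodes vinculin, the actin linker recruited to alpha-catenin under tension, rose by 0.15 on the log2 scale, with 33.9 ± 0.51 and 37.8 ± 0.42 FPKM in control and knockdown (adjusted p = 0.011). The alpha-actinins ACTN1 and ACTN4, which crosslink actin, fell with log2 fold changes of -0.17 and -0.14 (adjusted p = 0.012 for both), as did NUMB, an endocytic adaptor (-0.17, adjusted p = 0.0099).

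Of 11 tested genes of the beta-catenin destruction complex and its transcription partners, 3 fell and none rose. The share called was 27.3%, against 16.7% of all tested genes. BCL9L, a coactivator that binds beta-catenin, fell by 0.34 on the log2 scale, with 43.5 ± 1.3 FPKM in the control and 34.0 ± 1.2 FPKM in the knockdown (limma adjusted p = 0.0015). CSNK1A1, the kinase that primes beta-catenin for degradation, fell by 0.19 on the log2 scale (adjusted p = 0.011). The scaffold AXIN1 fell by 0.20 (adjusted p = 0.016), which did not pass with knockdown replicate 1 or 2 or control replicate 2 or 3 removed (at most 0.067). Of 7 tested target genes of beta-catenin none passed in limma, and 0 had an unadjusted p under 0.05, although 1 passed as lower when control replicate 1 was removed. Over all tested genes 16.7% passed, so the absence of calls among only 7 genes does not set this list apart. AXIN2, the most widely used such target, stood at 1.33 ± 0.087 and 1.56 ± 0.13 FPKM in control and knockdown (log2 fold change 0.13, 95% confidence interval -0.06 to 0.32, adjusted p = 0.31).

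Enzymes that cut or mature cadherins and nectins were also examined, in a list that also held CBLL1, PIP5K1C and AP1M2. Of its 13 tested genes 4 fell and none rose. The share called was 30.8%, against 16.7% of all tested genes. The gamma-secretase gene NCSTN passed as higher after the GC and length correction (limma adjusted p = 0.045). MMP7, matrilysin, which can shed the outer part of cadherins, stood at 14.6 ± 0.83 FPKM in the control and 8.97 ± 0.21 FPKM in the knockdown, and so fell by 0.65 on the log2 scale (SE 0.05, limma adjusted p = 3.7e-04). ADAM15, a membrane protease, stood at 134 ± 3.4 and 114 ± 1.9 FPKM (log2 fold change -0.23, adjusted p = 0.0026). Of the gamma-secretase genes, APH1A fell (-0.14, adjusted p = 0.0090) and PSEN2 fell (-0.20, adjusted p = 0.040), but PSEN2 did not pass when any library other than knockdown replicate 3 was removed (adjusted p up to 0.12), without a filter (0.090) or with the GC and length correction (0.060). ADAM10, the main sheddase of E-cadherin and N-cadherin, stood at 51.6 ± 3.6 and 57.5 ± 3.8 FPKM in control and knockdown (adjusted p = 0.13).

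**Figure D5:**
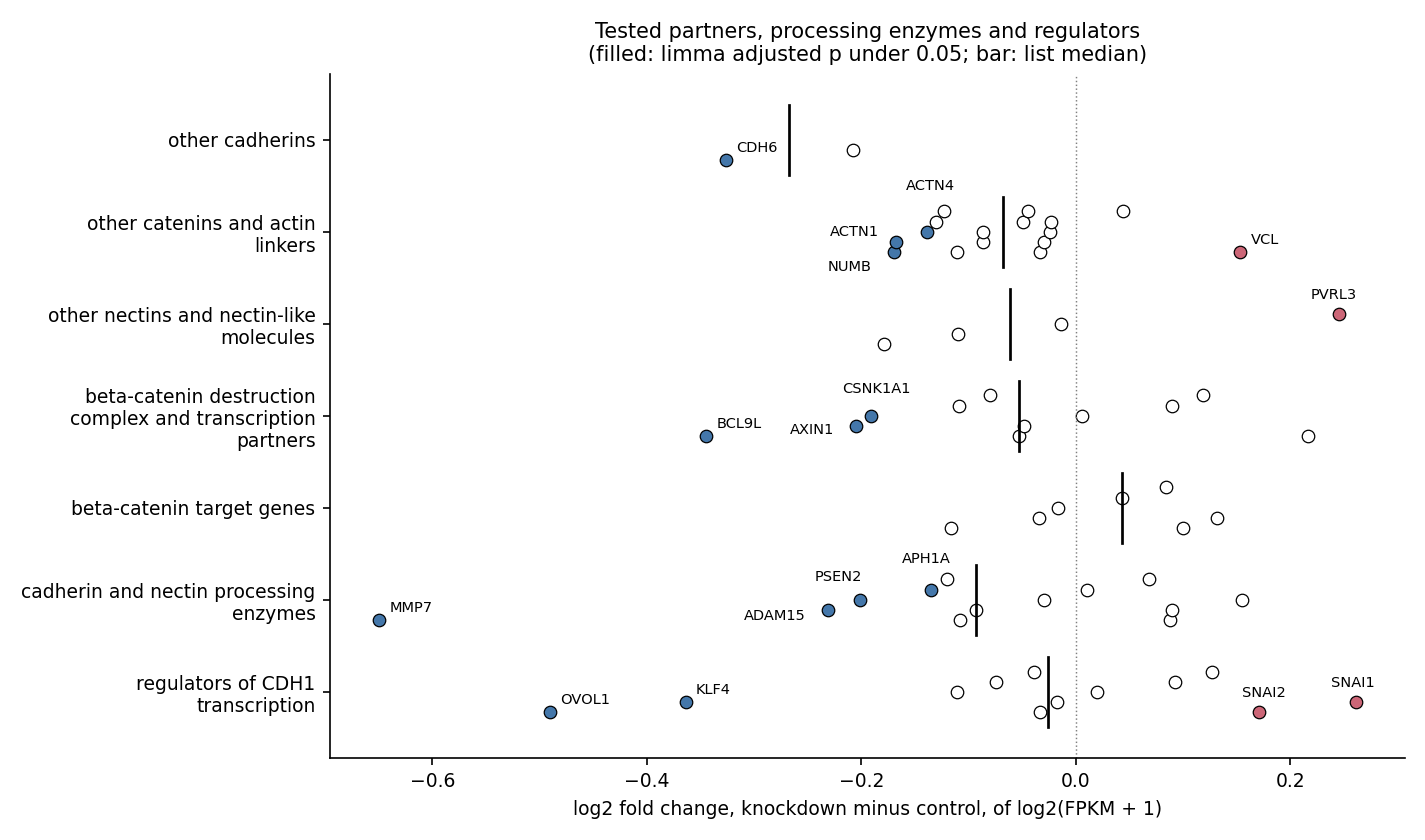
Log2 fold change (knockdown minus control) of each tested gene in 7 lists of related genes. Filled points passed the test (blue lower, red higher, with their symbols), open points did not, and each bar is the median of its list. MMP7 at -0.65 lies farthest from 0. None of the 7 tested beta-catenin target genes passed, while 16.7% of all tested genes did.

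Among factors that regulate CDH1 transcription, 2 of 12 tested rose and 2 fell, 33.3% called against 16.7% of all tested genes. SNAI1, which encodes the repressor Snail, stood at 7.01 ± 0.40 and 8.60 ± 0.26 FPKM in control and knockdown (log2 fold change 0.26, limma adjusted p = 0.014, not passing with replicate 2 of either group removed, at most 0.055). SNAI2, which encodes Slug, stood at 16.1 ± 0.58 and 18.2 ± 0.45 FPKM (log2 fold change 0.17, adjusted p = 0.025), and did not pass when any library other than knockdown replicate 3 was removed (adjusted p up to 0.084) or without a filter (0.053). KLF4, an activator of CDH1, and OVOL1, a repressor of mesenchymal factors, fell with log2 fold changes of -0.36 (adjusted p = 5.3e-04) and -0.49 (adjusted p = 0.0043). The other 8 did not pass: GRHL2 (limma adjusted p = 0.55), FOXA1 (0.61), OVOL2 (0.42), TCF3, TCF4, KLF8, CTBP1 and CTBP2. CTBP1 passed as higher after the GC and length correction (0.025). ZEB1 (0.787 FPKM in the control and 0.863 in the knockdown) and ZEB2 (0.550 and 0.531) were too low to be tested. TWIST1 was listed at 0 in all libraries.

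Snail, Slug and ZEB proteins bind the E-box CACCTG. The 250 bases before those member starts that had RefSeq sequence at hand (build GRCh38.p14) were searched for it on both strands (CACCTG or its complement CAGGTG). Promoters of 5 of the 9 genes were matched (CDH2, CTNNA1, CTNNB1, JUP and PVRL4), 10 starts in all, and 2 of these held the E-box. CDH1, CDH3, CDH11 and PVRL1 had no promoter in the sequence set, so their starts were not searched and nothing is said of E-boxes there. Over all 35116 promoters 17.5% held it. A match is a description of the letters and not evidence of binding, and which start H358 cells use is not given by gene-level values. The 2 sequences are shown because they are the member promoters that hold the motif, with the E-boxes in capitals. In JUP (chr17:41785977-41786226, minus strand) their first bases are at positions -54 and -43 from the start, and in PVRL4 (chr1:161089559-161089808, minus strand) at -38.
JUP: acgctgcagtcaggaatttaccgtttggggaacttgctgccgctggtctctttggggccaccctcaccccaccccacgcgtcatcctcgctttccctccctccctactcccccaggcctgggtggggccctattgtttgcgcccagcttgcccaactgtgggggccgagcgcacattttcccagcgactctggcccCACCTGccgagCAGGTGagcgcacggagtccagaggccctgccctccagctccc
PVRL4: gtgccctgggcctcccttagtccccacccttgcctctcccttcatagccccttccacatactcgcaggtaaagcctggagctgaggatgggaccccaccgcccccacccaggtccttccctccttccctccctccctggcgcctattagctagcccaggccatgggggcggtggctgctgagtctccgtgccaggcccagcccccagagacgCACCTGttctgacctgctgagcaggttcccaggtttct
The other 8 starts held no such E-box in this window: 1 of JUP and 1 of CTNNB1, which both fell, 2 of CDH2, which rose, and 4 of CTNNA1, which did not pass.

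Likeness of pattern was measured as Pearson's r of log2(FPKM + 1) over the 6 libraries, which fall into the 2 groups, so a high r mostly reflects the gap between groups. The genes most like CDH1 were ERMP1 (r = 0.9995), C7orf50 (r = 0.9991) and LAMP1 (r = 0.998), of which LAMP1, a lysosomal membrane glycoprotein gene, had means of 88.1 and 68.1 FPKM in control and knockdown. The genes most like CDH11 were SEC61A1 (r = 0.9997), MBTPS1 (r = 0.9993) and AKAP12 (r = 0.998). As many as 562 genes had r above 0.95 with CDH1 and 416 with CDH11, so these names single out no small set.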

How the data were processed

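The 6 libraries, 3 per group, were paired-end and came from a stranded kit for mRNA, per the labels. The authors deposited FPKM for each Ensembl gene. The submitters' processing notes name TopHat 1.4.1, Cuffdiff 2.2.0 and hg19; no annotation release or strand setting is given in the sources used here. FPKM rest on the transcript lengths assumed for a gene. All 6 libraries held 0 in 27772 of 54607 rows, and a 0 can be an estimate that failed. Starts in the file count from 0, as gene lengths showed, and were raised by 1.

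The 13611 rows whose mean reached 1 FPKM were tested as knockdown minus control on log2(FPKM + 1) with limma 3.58.1 under R 4.3.3, using moderated variances with an intensity trend, two-sided tests and Benjamini-Hochberg adjustment over all these rows. The pseudocount makes changes of low genes look smaller. P-values cover the spread between libraries that are described only as biological triplicates. Ratios of 2 genes had exact permutation tests (scipy 1.17.1). Relative depth was the most frequent ratio between libraries among values below 0.3 FPKM, and since FPKM hold no totals, no interval rests on depth.

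The members and lists were chosen with earlier results of these data known. The rule named all members, CTNND1, MLLT4, VCL, AXIN2 and PVRL2, up to 6 called genes of each list by adjusted p, ESRP1 and ESRP2, and the 3 genes most like CDH1 and CDH11. Other genes were named after their values were seen. The fit was also tested on simulated data with known changes and random noise of the fitted variances. It recovered 38% of 1.2-fold and 96% of 1.5-fold changes. Genes that did not pass can thus still have changed by small amounts. As alternatives, the fit was repeated with the replicate number as a block, with a pseudocount of 0.1, without the filter or with one of 5 FPKM, after median-ratio or TPM scaling, without the trend and with each library removed. A correction for GC content and transcript length (GENCODE v29, 9 of 9 members matched) was added after the data were seen.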

Additional observations from a re-analysis of the deposited data

How the results depend on the processing

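CDH1, CDH3, CDH11, JUP, PVRL1 and PVRL4 kept their direction and their call under every alternative tried. CDH2 kept its direction but did not pass with a replicate block (log2 fold change 0.45, adjusted p = 0.10), without a filter (0.45, adjusted p = 0.14) or without an intensity trend (0.45, adjusted p = 0.063), so that 1 member in place of 2 rose in these fits. CTNNB1 did not pass without an intensity trend (-0.13, adjusted p = 0.056). The number of members called ranged from 6 to 8 when 1 library was left out, 5 to 6 lower and 1 to 2 higher. In those fits the log2 fold change ranged from 0.34 to 0.53 for CDH2 and from -0.14 to -0.11 for CTNNB1. Over all genes 2278 were called, 1388 lower and 890 higher. With a replicate block 1433 were called (491 higher), without a filter 1413 (916 lower and 497 higher), and without 1 library 1187 to 1983 (761 to 1133 lower, 403 to 850 higher). No shared effect of the replicate number was visible. Same-numbered deviations from the group means correlated at -0.02, 0.06 and 0.07, and not every library correlated best with its own number. With 3 libraries per group, this cannot show whether same-numbered libraries were prepared together. The replicate block changed the call of no member other than CDH2. Among the other genes named it ended the calls of CDH6 (adjusted p = 0.051), PSEN2 (0.094), SNAI2 (0.053), KRT8 (0.062), HAS3 (0.057) and TMCO7 (0.075), and ADAM10 passed as higher (0.035). Of the 65 tested genes of the 7 lists 13 fell and 4 rose, 26.2% in all, against 16.7% of all tested genes. Without a filter 2 rose, and without 1 library 1 to 4 rose and 10 to 15 fell. Of 17 such genes called, 11 kept their call in every setting tried. PVRL2 passed after TPM scaling (-0.12, adjusted p = 0.049) and without knockdown replicate 1 (-0.14, adjusted p = 0.047). The median of all tested genes moved by 0.0054 with median-ratio and by -0.012 with TPM scaling. The cause of these differences was not tested. Fits that left out a library also rested on fewer libraries, and the part of this was not tested either. The total depth is unknown, and 3 libraries per group limit the precision of small changes such as that of CTNNB1.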
